A study of Drosophila melanogaster with 46 samples.

Results

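The vacuolar ATPase (V-ATPase) genes of Drosophila melanogaster were followed across ovary, testis, carcass, whole flies, sex-transformed mutants and flies without a germline. The genes were all those whose symbol in the array's probe-to-gene table starts with Vha, which gave 29 genes on 40 array elements (80 spots), out of 10850 genes on 15732 elements (31464 spots). All 29 symbols matched the current RefSeq gene table. From knowledge outside these data, 12 genes (22 elements) were classed as general subunits, 15 genes (15 elements) as alternative paralogs, that is, further genes for a subunit that also has a general gene, and 2 genes (3 elements) as accessory proteins. The probe-to-gene table does not name Vha68-2, the general gene for the catalytic subunit A, nor Vha68-1, Vha100-3, Vha16-3, VhaAC45L and VhaM8.9, and these are not analysed here.

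The V-ATPase is a rotary proton pump that acidifies lysosomes, endosomes and secretory vesicles and energises the apical membranes of epithelia such as the Malpighian tubule and midgut. Its V1 sector, in the cytoplasm, splits ATP in a head of A and B subunits; a central shaft of D and F subunits turns inside the head while peripheral stalks of E and G subunits hold it still. The membrane sector, V0, moves protons through half-channels in subunit a and a ring of c and c″ proteolipids, to which subunit d couples the shaft. In the fly most subunits are encoded by a broadly used gene together with paralogs of narrower use, some of them known from the testis.

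Each array compared poly(A) RNA of a pair of sources, 200 ng per probe, labelled with Cy3 or Cy5. The groups compared were as follows, all from adults aged 3 to 5 days kept at 25 C. Ovaries, testes, female and male carcasses (flies with the gonads dissected out) and whole females and males came from the y[1]w[67c] strain, which some labels write as y[1]w[1]. XX;tra2 flies carried tra2[B]/TRIX on w[67c]/w[67c] sex chromosomes, and XY;tra2 flies carried tra2[B]/TRIX with w[67c]/BsY. XX;dsx flies were +/+;dsx[M+R45]/dsx[swe]. Tudor females and tudor males carried tud[1] bw[1]sp[1], as did their mothers, are described as lacking a germline and were taken whole. The mutants therefore differ from y[1]w[67c] in genetic background as well as in the named alleles.

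Of the 46 arrays, 44 carried 15 comparisons, 7 of them on 4 arrays and 8 on 2, and the other 2 compared mixed-sex RNA with itself. An array held values for 7994 to 14881 elements (median 12377.5). The deposited values were log ratios, taken here as log2 (the base is not stated), and they were turned by the titles so that each ratio below is the first-named RNA over the second. The direction is likely rather than stated: with channel 1 as the numerator, females exceeded males on 4 of 4 arrays for Yp1, Yp2 and Yp3, which encode yolk proteins, and betaTub85D, Mst87F and dj, of the male germline, were lower in ovary than in testis on 4 of 4. Duplicate spots of the Vha elements differed by a median of 0.09. On the mixed-sex arrays the Vha genes lay between -0.22 and 0.30, over 24 genes on array 27a and over 26 genes on array 27b. Ratios compare 2 RNAs for 1 element and give no level of one gene against another. Arrays lettered a and b share the number in their titles, taken here as 1 hybridisation. Comparisons on 4 arrays thus had 2 numbered hybridisations, and those of numbers 17 to 21 had 1 each. The labels do not say whether repeat arrays came from separate extracts. The spread behind a p-value was estimated for each element over the 44 arrays together, and it may be technical.

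Ovary against testis showed the widest spread of the family. All 12 general subunits differed between the gonads, 11 of them higher in ovary and Vha44 in a direction that depended on its array element, while the largest differences in the family belonged to 4 paralogs that were 3.07 to 6.34-fold lower in ovary than in testis. With limma and an adjusted p below 0.05, 25 of the 29 genes were called, 17 higher and 8 lower, against 65.5% of all elements tested (34.1% higher and 31.4% lower). The median ratio was 0.71 for the general subunits, -0.11 for the paralogs and 0.05 for the accessory proteins, beside 0.00 for all elements. Here and below, bulk RNA cannot tell fewer cells of a type from less RNA per cell. Vha14-2 and VhaM9.7-d were measured on only 23 and 22 of the 44 arrays. They could be tested only in comparisons with testis, whole male or XY tra2 RNA, in which they were high. Their calls, and their part in the counts and pairs here and below, follow in part from that filter and are no separate support.

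**Figure D1:**
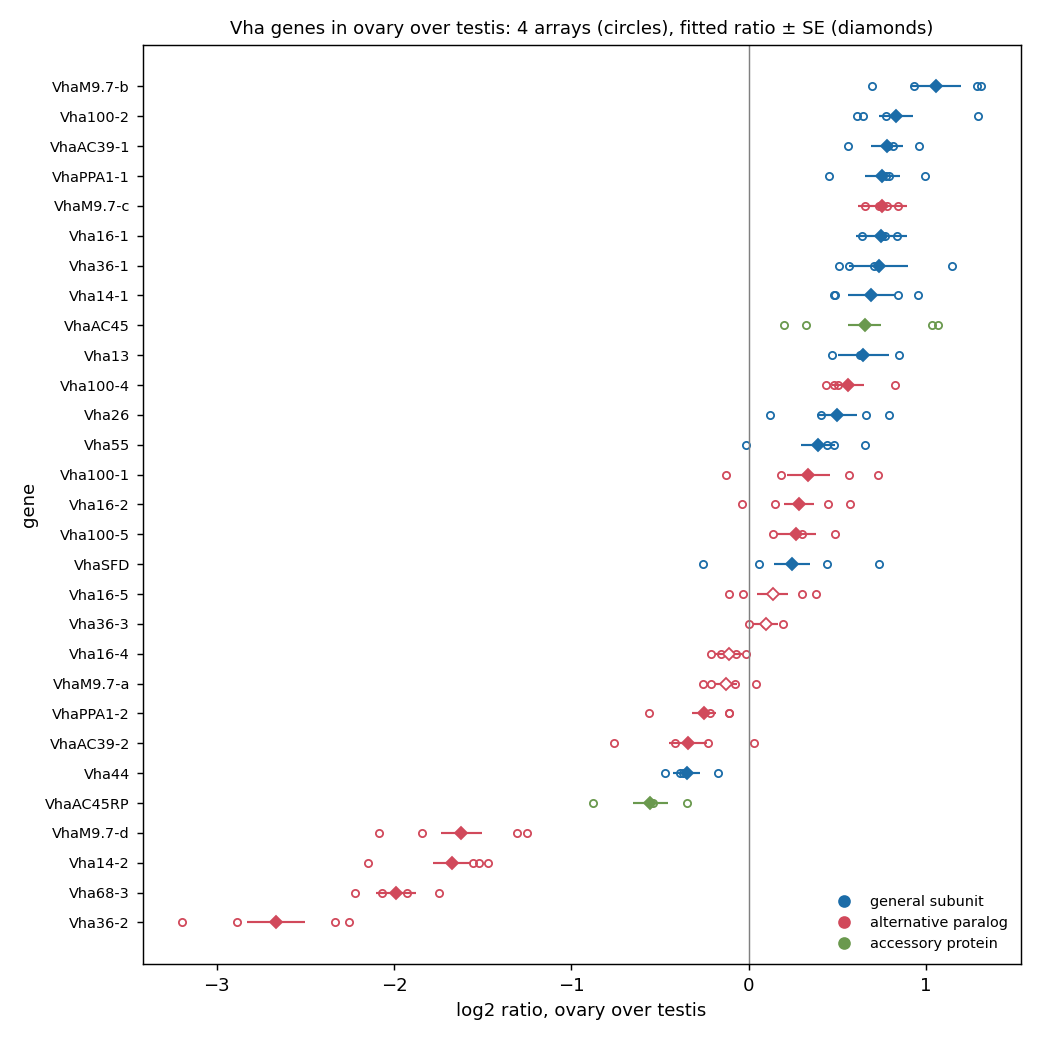
Log2 ratio of ovary over testis (x axis) for the 29 Vha genes (y axis, 1 element per gene); small points are single arrays and large points with bars the fitted ratio ± SE, coloured by class. The general subunits lie above 0 except for the element drawn for Vha44 at -0.35, and Vha36-2, Vha68-3, Vha14-2 and VhaM9.7-d are the lowest 4.

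In the V1 head and shaft the paralogs and general genes parted. Vha36-2, a second gene for the shaft subunit D, read -2.88, -2.25, -3.19 and -2.33 on arrays 5a, 5b, 6a and 6b, a fitted ratio of -2.67 ± 0.16 (SE, n = 4 arrays, adjusted p = 2.07e-14) or 6.34-fold lower in ovary. Its general counterpart Vha36-1 was higher in ovary at 0.73. Vha68-3, a paralog of the catalytic subunit A, read -1.74, -1.93, -2.22 and -2.07, fitted at -1.99 ± 0.11 (adjusted p = 2.34e-15) and 3.97-fold lower in ovary. All 4 arrays were below 0 for both genes, and the highest of them lay below the lowest array of any general subunit. Vha14-2, a paralog of the shaft subunit F, read -1.52, -1.47, -2.15 and -1.55 (fitted -1.67 ± 0.11, adjusted p = 1.5e-09, 3.19-fold lower in ovary), with array 6a well below the other 3. The general F gene Vha14-1 was higher at 0.69. Vha55, the nucleotide-binding subunit B of the head, was higher at 0.39. Vha36-3, the other D paralog, had a ratio of 0.10 and did not pass (adjusted p = 0.234).

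The stalk subunits Vha26 (E) and Vha13 (G) were higher in ovary at 0.50 and 0.65, and VhaSFD (H), which regulates the pump, at 0.24 (adjusted p = 0.0324). Vha44, the assembly subunit C, was the only general gene lower in ovary, at -0.35 ± 0.08 (adjusted p = 1.64e-04), and this depended on the element. All 3 of its elements were measured on 44 arrays, and the one that stands for it does so only by having the lowest ID. Its other elements were higher in ovary, at 0.54 (adjusted p = 2.53e-04) and 0.46 (adjusted p = 7.03e-04), so that no direction can be given for Vha44 here or below. Elements of 3 more genes differed in call: 1 of 4 Vha16-1 elements (-0.15), 1 of 2 Vha26 elements (-0.04) and 1 of 2 VhaSFD elements (-0.16) did not pass, whereas their partners were higher in ovary. Counted by element, 24 of 39 were higher and 8 lower, with 18 of the 22 general elements higher.

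In the membrane sector the highest ratio of the family was that of VhaM9.7-b, the general gene for the small membrane subunit e. It read 1.31, 1.29, 0.93 and 0.70, fitted at 1.06 ± 0.14 (adjusted p = 9.44e-08), 2.08-fold higher in ovary. VhaM9.7-d, a paralog of the same subunit, read -1.84, -1.25, -2.08 and -1.31, fitted at -1.62 ± 0.12 (adjusted p = 3.15e-09) and 3.07-fold lower in ovary. Both e genes kept 1 side of 0 on every array, and those sides were opposite. VhaM9.7-c, another e paralog, was on the side of ovary at 0.74, 0.66, 0.84 and 0.78 (0.75 ± 0.14, adjusted p = 2.1e-05), and VhaM9.7-a did not pass at -0.13 (adjusted p = 0.0803).

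Subunit a, which holds the proton half-channels, is encoded by 4 measured genes, and all of them were higher in ovary. Vha100-2, the general one, read 1.29, 0.64, 0.77 and 0.61, fitted at 0.83 ± 0.09 (adjusted p = 4.31e-09), with array 5a standing above the other 3. The paralogs Vha100-4, Vha100-1 (known for its role at synapses) and Vha100-5 followed at 0.56, 0.34 and 0.27. In the ring, the proteolipid gene VhaPPA1-1 (c″) read 1.00, 0.77, 0.79 and 0.45, fitted at 0.75 ± 0.10 (adjusted p = 6.28e-08). Its neighbour on chromosome arm 3R, the paralog VhaPPA1-2, with only RpS5b between them, was lower at -0.25. The c gene Vha16-1 was higher at 0.75 and its paralog Vha16-2 at 0.28, whereas Vha16-4 (-0.11, adjusted p = 0.177) and Vha16-5 (0.13, adjusted p = 0.177) did not pass.

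VhaAC39-1, the general gene for subunit d that couples ring and shaft, read 0.96, 0.56, 0.79 and 0.81, fitted at 0.78 ± 0.09 (adjusted p = 6.67e-09). Its paralog VhaAC39-2 was lower at -0.34 ± 0.11 (adjusted p = 0.00725), and without array 6a its ratio of -0.17 no longer passed. Of the accessory proteins, VhaAC45, a membrane glycoprotein that travels with the pump, was higher at 0.65 from arrays at 1.03, 1.07, 0.20 and 0.32. The related VhaAC45RP read -0.35, -0.88 and -0.54 on the 3 arrays that measured it, fitted at -0.55 ± 0.10 (adjusted p = 2.37e-05). Both accessory genes held their sign on each array. A further 5 calls ended when 1 array was left out: VhaPPA1-2 without array 6b (-0.15), Vha16-2 without 6a (0.18), Vha100-1 without 5a or 6b (0.28 and 0.19), and Vha100-5 and VhaSFD each without any 1 of 3 arrays.

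Other cell types differed between these RNAs too. Male germline markers were lower in ovary for 5 of 5 genes (median -3.86) and accessory gland markers for 6 of 6 (median -2.87). Malpighian tubule markers were lower for 5 of 7, with 1 higher (median -0.43). Of 7 female germline markers 6 were higher and 1 lower (median 1.62). Their part in the Vha ratios was not tested. Nor was cross-hybridisation between paralogs tested, since the sequences of the array elements were not used here.

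The paralogs were then set against the general gene for the same subunit within each array, so that RNA amount and array-wide dye effects are shared. Dye effects of single elements are not removed in this way, and the fit kept a dye coefficient for each difference. By standing elements, the paralog ratio in ovary over testis lay below that of its general gene in 14 of 14 pairs. Each 95% interval (unadjusted) excluded 0. The count depends on the choice of element, since another of the tied Vha16-1 elements read below Vha16-2 (0.28), Vha16-5 (0.13) and Vha16-4 (-0.11). The difference was -3.40 (-3.98 to -2.82) for Vha36-2 minus Vha36-1, -2.68 (-3.03 to -2.32) for VhaM9.7-d minus VhaM9.7-b and -2.36 (-2.82 to -1.91) for Vha14-2 minus Vha14-1. Those 3 stood apart from the rest in size. VhaM9.7-a minus VhaM9.7-b gave -1.18, VhaAC39-2 minus VhaAC39-1 gave -1.12, and the remaining 9 pairs ran up to -0.27 for Vha100-4 minus Vha100-2. Pairs that share a general gene (Vha100-2, Vha16-1, VhaM9.7-b and Vha36-1) are not independent, and Vha68-3 has no pair because Vha68-2 is not analysed here. Vha14-2 and VhaM9.7-d were tested only where they were high, so their pairs are no separate support.

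**Figure D2:**
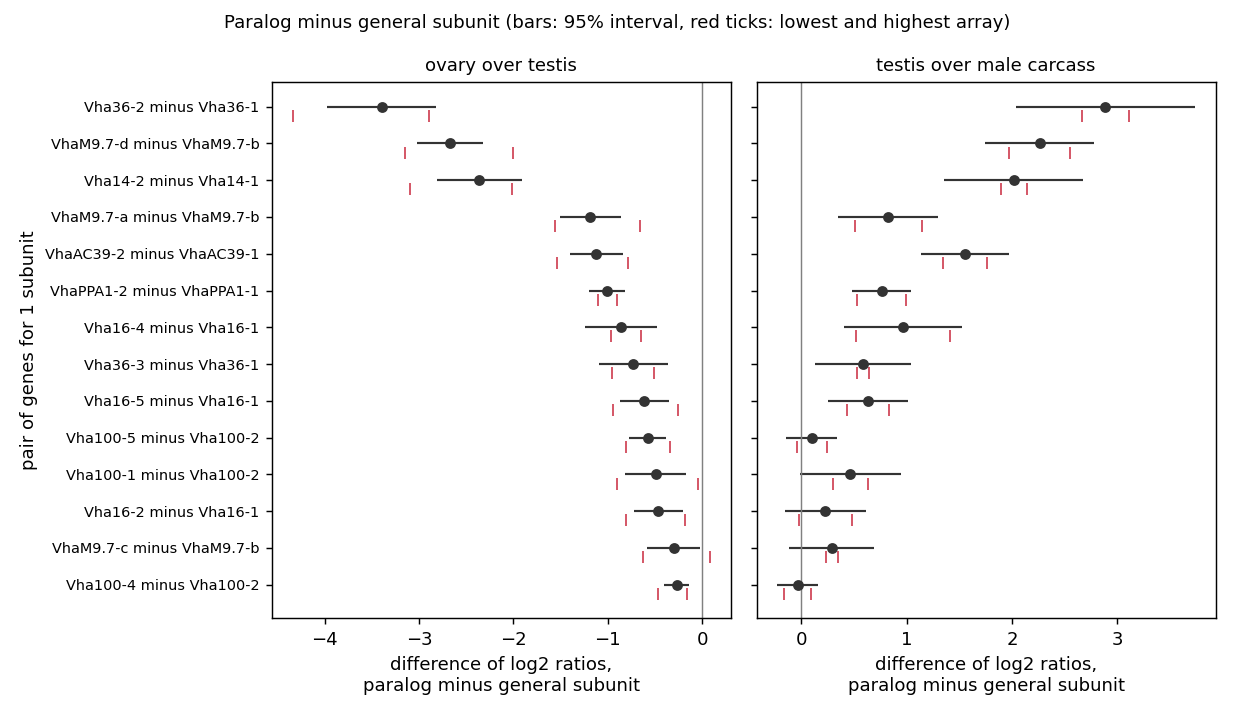
Difference of the log2 ratios of an alternative paralog and the general gene of its subunit (x axis) for each pair (y axis). Bars are unadjusted 95% intervals, and the comparisons are ovary over testis and testis over male carcass. In ovary over testis the 14 differences run from -3.40 for Vha36-2 to -0.27 for Vha100-4.

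Testis against male carcass asked which gonad values come with a departure from the rest of the body. Of the 12 general genes 11 were lower in testis, and the elements of the C gene Vha44 went both ways, while 5 paralogs were higher in testis by 1.53 to 4.48-fold. In all, 6 genes were higher and 18 lower of 29, beside 52% of all elements called (25.6% higher and 26.3% lower). The median was -0.80 for the general subunits and -0.04 for the paralogs, beside 0.00 for all elements. This comparison had 2 arrays, 9 and 10, and without either of them 16 genes were called; Vha55, Vha13, Vha36-1, Vha100-1, VhaM9.7-c and VhaAC45RP lost their calls either way, Vha44 without array 9 (0.27), and Vha16-1 (-0.71) and VhaSFD (-0.42) without array 10.

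Vha36-2 (D) read 2.31 and 2.02, fitted at 2.16 ± 0.24 (n = 2 arrays, adjusted p = 1.49e-08), 4.48-fold higher in testis. VhaM9.7-d (e) read 1.33 and 1.50, fitted at 1.41 ± 0.17 (adjusted p = 3.61e-06). Vha68-3 (A) read 1.60 and 1.11, fitted at 1.35 ± 0.17 (adjusted p = 7.41e-08). Both arrays of these genes were above 1, and Vha14-2 (F) followed at 1.17 (adjusted p = 1.41e-05). VhaAC39-2 (d) was higher at 0.62 ± 0.16 (adjusted p = 0.00189), but from unequal arrays, 0.84 and 0.39, and without array 9 it no longer passed (0.28).

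At the other end, VhaAC45 read -1.0015 and -1.3405, fitted at -1.17 ± 0.14 (adjusted p = 3.08e-08), 2.25-fold lower in testis. Vha26, the E subunit of the peripheral stalk, read -0.92 and -1.20 (-1.06 ± 0.16, adjusted p = 2.29e-06), and Vha100-4 (a) read -0.83 and -1.26 (-1.04 ± 0.13, adjusted p = 7.12e-08). On both arrays these 3 were clearly below 0. Vha100-2 (-1.01), VhaAC39-1 (-0.94), Vha100-5 (-0.91), Vha14-1 (-0.85), VhaM9.7-b (-0.85), Vha16-1 (-0.80), VhaPPA1-1 (-0.80), Vha36-1 (-0.72), VhaSFD (-0.64), Vha13 (-0.61), Vha16-2 (-0.57), VhaM9.7-c (-0.56), Vha100-1 (-0.54), VhaAC45RP (-0.36) and Vha55 (-0.35) were also lower in testis. The general genes of both sectors thus lay between -1.06 and -0.35 apart from Vha44.

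The paralogs that did not pass were Vha16-5 (-0.17), Vha36-3 (-0.13), VhaPPA1-2 (-0.04), VhaM9.7-a (-0.02) and Vha16-4 (0.16). Elements again disagreed for Vha44, at 0.36 for the one that stands for it against -1.06 and -0.99 for the others, and for Vha100-2, where 1 of 3 elements was at 0.03 and did not pass. A further 4 general elements did not pass: Vha16-1 at -0.51 and 0.02, Vha26 at -0.12 and Vha55 at -0.29. The second element of VhaAC45 read -0.20 and did not pass either. Relative to its general gene, the paralog ratio had an interval above 0 in 9 of 14 pairs, among them Vha36-2 (2.88), VhaM9.7-d (2.26), Vha14-2 (2.02) and VhaAC39-2 (1.55), and below 0 in none. Vha14-2 and VhaM9.7-d entered these counts through testis RNA, in which they were high.

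Marker genes placed the carcass RNA: 8 of 8 midgut markers (median -1.36) and 5 of 5 muscle markers (median -2.66) were lower in testis, 5 of 5 male germline markers were higher (median 2.66), and accessory gland markers were higher in testis for 6 of 6 (median 1.16). Among Malpighian tubule markers 5 of 8 were lower and 1 higher (median -0.46). Whether these tissues set the Vha ratios was not tested.

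Ovary against female carcass gave calls in 1 direction by the elements that stand for the genes. No Vha gene was then higher in ovary and 13 of 27 were lower, beside 48.2% of all elements called (22.9% higher and 25.4% lower). The share called, 48.1%, was thus near that of all elements, and another element, of Vha100-2, was higher in ovary. The 13 included 6 of 12 general subunits (median -0.30), 5 of 13 paralogs (median -0.22) and both accessory proteins, beside a median of -0.01 for all elements. The paralogs Vha14-2 and VhaM9.7-d were not measured often enough to be tested here.

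Vha100-5 (a) read -1.22 and -1.32 on arrays 7a and 8a, fitted at -1.27 ± 0.14 (n = 2 arrays, adjusted p = 1.05e-08), 2.41-fold lower in ovary. That value leaves out the first subarray of arrays 7b and 8b, which ran against the labels; with those arrays as deposited its ratio was -0.17 and did not pass. The same held for Vha68-3 (-0.09), VhaAC45RP (-0.10) and Vha100-2 (-0.08), while VhaAC45 (0.048) and VhaSFD (0.0084) changed sign without passing. VhaAC45 read -0.62 and -0.95 on arrays 7a and 8a (-0.78 ± 0.14, adjusted p = 2.04e-05), and its second element was lower as well at -0.31. Vha26 (E) read -0.69, -0.67, -0.84 and -0.90 on arrays 7a, 7b, 8a and 8b (-0.77 ± 0.11, adjusted p = 8.21e-07), although its second element was at -0.06 and did not pass. The remaining genes lower in ovary were Vha68-3 (-0.76), Vha100-4 (-0.67), VhaSFD (-0.53), VhaAC45RP (-0.49), Vha36-3 (-0.43), VhaAC39-1 (-0.39), Vha13 (-0.37), Vha100-2 (-0.37), Vha55 (-0.33) and VhaM9.7-a (-0.25).

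Vha36-2, the gene with the largest ratio in testis, did not differ detectably between ovary and female carcass (-0.20). VhaM9.7-c had the highest ratio at 0.19, which did not pass. For Vha100-2, 1 element was higher in ovary (0.36, adjusted p = 0.013) while the others were lower, and for Vha44 the element that stands for it was at 0.01 while the others were lower at -0.64 and -0.66. Without array 7a 6 genes were called and without array 8a 7, partly because genes with values on 2 arrays could then not be tested; Vha13 lost its call without 7a, 7b or 8b. Midgut markers (8 of 8, median -2.54), muscle markers (5 of 5, median -2.39) and tubule markers (6 of 8, median -0.72) were lower in ovary, and their part in the Vha ratios was not tested.

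**Figure D3:**
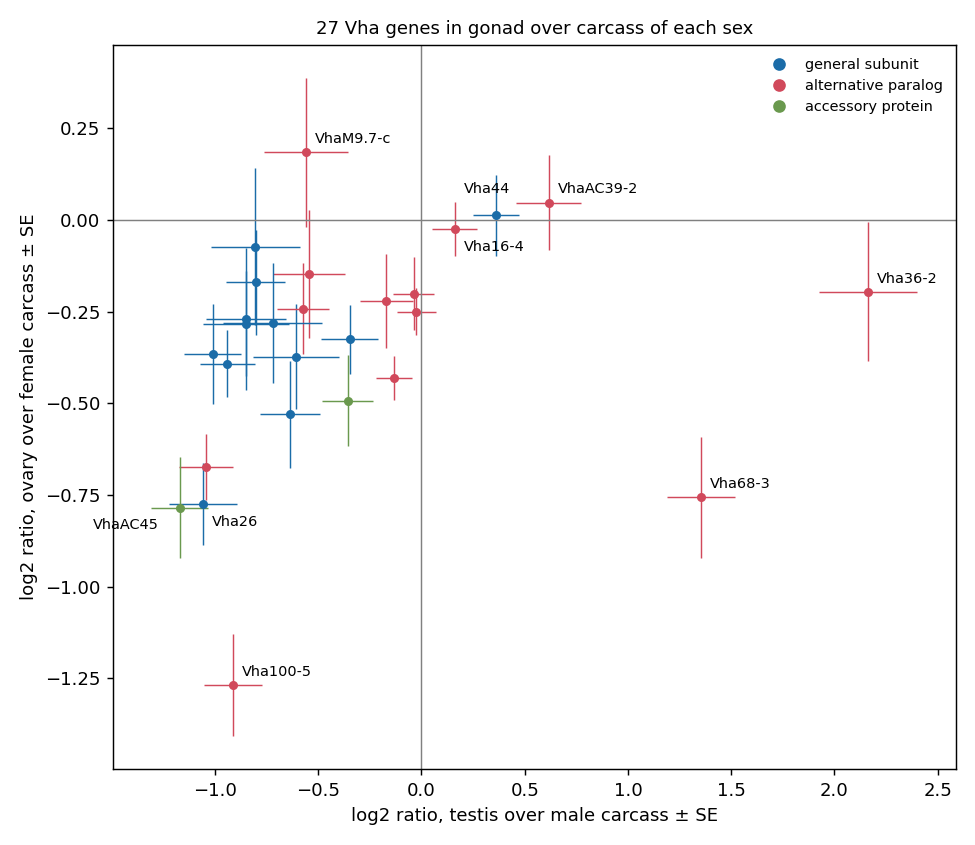
Log2 ratio of testis over male carcass (x axis) against ovary over female carcass (y axis), ± SE, for the 27 Vha genes tested in both, coloured by class. Most genes lie left of and below 0; Vha36-2 (2.16 and -0.20) and Vha68-3 (1.35 and -0.76) lie far to the right.

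Whether a gene departs from the carcass differently in testis and in ovary was tested as a difference of the 2 gonad effects, a test added after the data had been seen. It was called for 8 of 27 genes, 4 with a higher testis effect and 4 with a lower one, beside 33.1% of all elements (18.1% higher and 15% lower). Higher in the testis effect were Vha36-2 (2.36 ± 0.30, adjusted p = 8.09e-07), Vha68-3 (2.11 ± 0.23, adjusted p = 6.33e-08), VhaAC39-2 (0.57, adjusted p = 0.0327) and Vha36-3 (0.30, adjusted p = 0.031), none of them general subunits. Lower were VhaM9.7-c (-0.74, adjusted p = 0.045), Vha100-2 (-0.65, adjusted p = 0.0101), VhaPPA1-1 (-0.63, adjusted p = 0.0155) and VhaAC39-1 (-0.55, adjusted p = 0.0092), of which 3 are general V0 genes. For Vha16-1 the element that stands for it did not pass, and 2 others were lower in the testis effect, at -0.73 and -0.52, while 1 element of Vha100-2 (-0.33) did not pass. Leaving out array 7a, 8a or 9 gave 4 calls, and the 6 genes other than Vha36-2 and Vha68-3 each lost theirs without array 9. With arrays scaled to the same spread only Vha36-2 (1.61) and Vha68-3 (1.53) were called, 2 higher and 0 lower, and uncentred arrays gave 5 higher and 3 lower.

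Whole females against whole males include the gonads. The paralogs Vha36-2, Vha68-3, VhaM9.7-d and Vha14-2 were the lowest genes, and 5 general subunits were higher in females. Of these, VhaM9.7-d and Vha14-2 entered the test through male RNA, in which they were high. Of 29 genes 7 were higher and 8 lower in females, beside 55.4% of all elements (28.1% higher and 27.2% lower), and the medians were 0.20 for general subunits (5 higher, 1 lower of 12) and -0.17 for paralogs (2 higher, 6 lower of 15). Scaling the arrays to the same spread gave 1 higher and 6 lower. Male germline markers were lower in females for 5 of 5 (median -2.94), accessory gland markers for 6 of 6 (median -2.13), tubule markers for 5 of 7 with 1 higher (median -0.68) and muscle markers for 4 of 5 (median -0.69). Midgut markers were higher for 6 of 8 with 1 lower (median 0.84), follicle cell markers for 5 of 5 (median 1.94) and female germline markers for 6 of 7 with 1 lower (median 1.61), and the part of these tissues was not tested.

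Vha36-2 (D) read -2.15, -1.57, -1.91 and -1.61 on arrays 1a, 1b, 2a and 2b, fitted at -1.81 ± 0.16 (adjusted p = 2.48e-10), 3.51-fold lower in females. Vha68-3 (A) read -1.46, -0.96 and -1.02 on the 3 arrays that measured it (-1.09 ± 0.13, adjusted p = 5.88e-08). VhaM9.7-d (e) read -0.86, -0.61 and -1.02 (-0.84 ± 0.14, adjusted p = 8.67e-05). Every array put these 3 below 0, and Vha14-2 (-0.76), VhaAC45RP (-0.51), VhaPPA1-2 (-0.28), Vha44 (-0.18) and VhaM9.7-a (-0.17) were lower too. Vha44 lost its call without array 1a, 1b or 2a and stood at -0.04 as the mean over its elements, and VhaM9.7-a lost its call without 1a, 2a or 2b. Of second elements, that of VhaSFD was lower (-0.20), and those of Vha100-2 were higher (0.30 and 0.58).

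On the female side, Vha13 (G) read 0.57, 0.39, 0.64 and 0.18 (0.45 ± 0.14, adjusted p = 0.00841). VhaAC39-1 (d) read 0.54, 0.31, 0.21 and 0.46 (0.38 ± 0.09, adjusted p = 7.8e-04). VhaM9.7-b (e) read 0.40, 0.50, 0.63 and -0.05 (0.37 ± 0.14, adjusted p = 0.0276), so that 1 of its arrays crossed 0. Vha16-1 (0.36), VhaM9.7-c (0.34), Vha55 (0.34) and Vha100-5 (0.33) were higher as well. Without array 2a 7 genes were called in place of 15, and Vha13 (0.34), VhaM9.7-b (0.24), Vha55 (0.19), Vha100-5 (0.18) and VhaM9.7-c (0.20) were among those that no longer passed. Vha16-1 lost its call without array 1a (0.20) or 2b (0.32).

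Carcasses, with the gonads removed, gave 10 of 27 genes higher in females and 1 lower, beside 16.5% of all elements (8.89% higher and 7.63% lower). Fitted on its own 4 arrays alone, the comparison gave 0 called genes in limma of 24 tested, 11 at an unadjusted p below 0.05, with Vha100-5 at 0.57 (adjusted p = 0.10) and Vha55 at 0.52 (adjusted p = 0.184). The general subunits had a median of 0.31 (5 higher, 1 lower of 12) and the paralogs 0.18 (4 higher of 13). Vha100-5 (a) read 0.63, 0.60, 0.83 and 0.22 on arrays 3a, 3b, 4a and 4b (0.57 ± 0.10, adjusted p = 7.71e-05). Vha55 (B) read 0.69, 0.58, 0.85 and -0.02 (0.52 ± 0.09, adjusted p = 1.56e-04), and Vha14-1 (F) read 0.48, 0.27, 0.92 and 0.32 (0.50 ± 0.13, adjusted p = 0.00937). Array 4a was highest and 4b lowest or near lowest for these genes.

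Vha13 (0.47), VhaM9.7-b (0.42), Vha100-2 (0.38), Vha100-4 (0.33), VhaAC45 (0.31), Vha36-3 (0.30) and VhaPPA1-2 (0.21) were also higher in female carcasses. The element standing for Vha44 was the lower one, at -0.17, -0.22, -0.37 and -0.16 (-0.23 ± 0.08, adjusted p = 0.0345), but another of its elements was higher (0.36) and their mean was 0.09. Neither Vha36-2 (-0.40) nor Vha68-3 (-0.10) passed. The arrays correlated across all elements at 0.30 to 0.75, lower than in other 4-array comparisons except that of XX and XY tra2 flies, and without array 4a 3 genes were called and without array 3b 7; Vha14-1 (0.34), Vha13 (0.25), VhaM9.7-b (0.14), Vha100-2 (0.25) and Vha36-3 (0.18) lost their calls without 4a. Vha100-4, VhaAC45, VhaPPA1-2 and Vha44 lost theirs without 3b or 4a, and some of them without 3a or 4b as well. Midgut markers were higher in female carcasses for 7 of 8 (median 1.67), follicle cell markers for 5 of 5 (median 1.29), and accessory gland and male germline markers lower for 6 of 6 and 5 of 5 (medians -1.35 and -1.08); what they contribute to the Vha ratios was not tested.

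**Figure D4:**
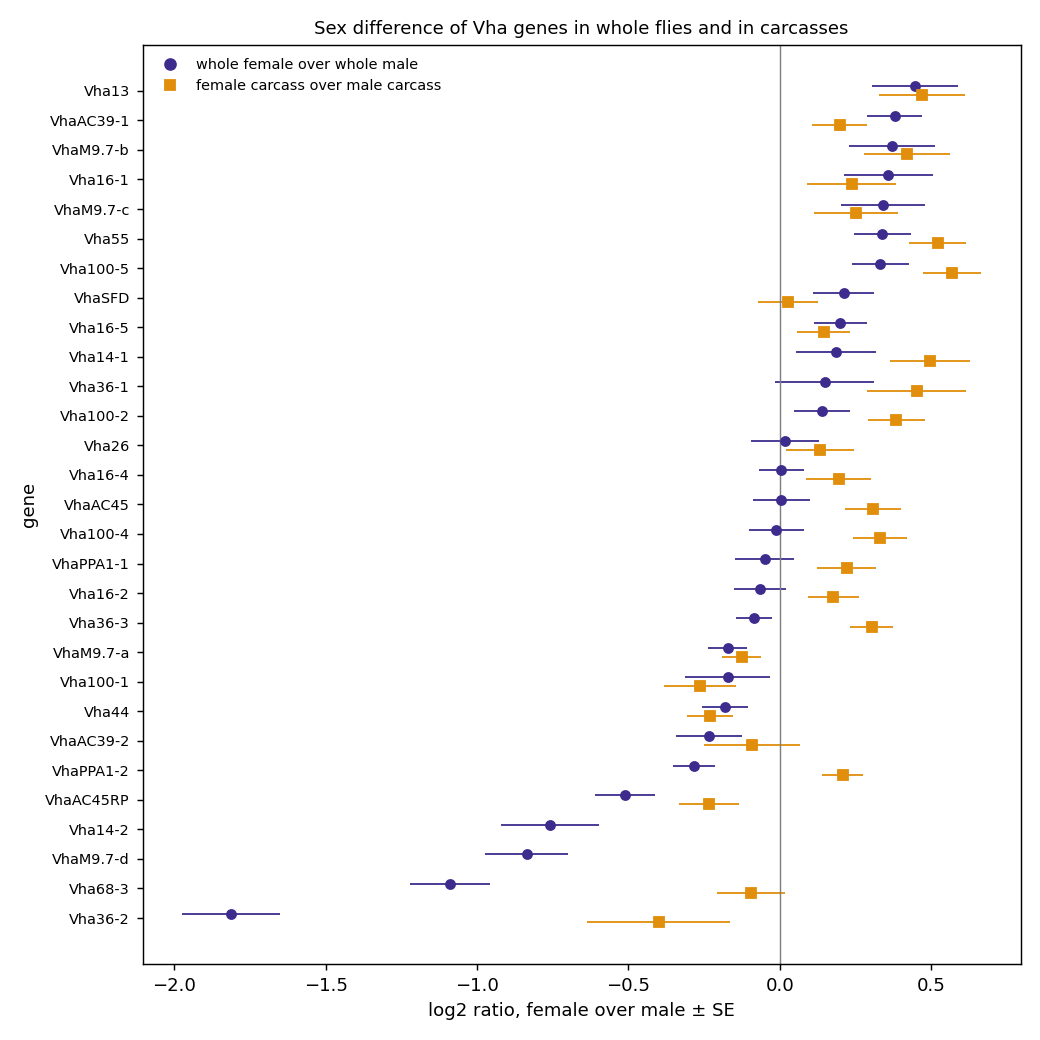
Log2 ratio of female over male ± SE (x axis) for each Vha gene (y axis) in whole flies (circles) and in carcasses (squares). Vha36-2 lies at -1.81 in whole flies and -0.40 in carcasses; Vha14-2 and VhaM9.7-d were tested in whole flies only.

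The sex difference itself differed between whole flies and carcasses for 5 of 27 genes by the elements that stand for them, each a paralog and lower in the whole-fly ratio, beside 35.8% of all elements (17% higher and 18.8% lower). They were Vha36-2 (-1.41 ± 0.29, adjusted p = 4.24e-04), Vha68-3 (-0.99 ± 0.17, adjusted p = 7.69e-05), VhaPPA1-2 (-0.49 ± 0.10, adjusted p = 2.79e-04), Vha36-3 (-0.39 ± 0.09, adjusted p = 0.00165) and Vha100-4 (-0.34 ± 0.13, adjusted p = 0.0344). Among the other elements of general genes, 1 of Vha100-2 was higher in the whole-fly ratio (0.53) and 1 of VhaSFD lower (-0.28). VhaPPA1-2 was lower in whole females and higher in female carcasses. Without array 2a 10 genes were called in place of 5, and Vha100-4 lost its call without any one of 5 arrays (-0.30 to -0.26). The share of Vha genes called, 18.5%, was below that of all elements, and that of the paralogs, 38.5%, was near it. Vha36-2 had values on only 2 of the 4 carcass arrays, and elements measured on all arrays gave 2 calls.

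XX flies that lack tra2, a gene needed for female somatic development, were compared with y[1]w[67c] females. By the elements that stand for the genes, 9 of 27 were higher in the mutants and 0 lower, beside 54.9% of all elements (27.7% higher and 27.2% lower), so the share called was below that of all elements. VhaAC45RP read 0.52, 0.47, 0.68 and 0.76 on arrays 11a, 11b, 12a and 12b (0.61 ± 0.08, adjusted p = 1.3e-06). Vha14-1 (F) read 0.40, 0.04, 0.74 and 0.37 (0.39 ± 0.13, adjusted p = 0.0138), and Vha100-4 (a) read 0.05, 0.02, 0.75 and 0.62 (0.36 ± 0.09, adjusted p = 0.00105). For the last gene the arrays of the 2 dye orientations did not overlap.

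VhaAC45 (0.34), Vha68-3 (0.31), Vha26 (0.27), Vha100-5 (0.25), Vha36-3 (0.20) and VhaPPA1-2 (0.18) were higher too, and Vha36-2 was at 0.05 and did not pass. Among other elements 1 of Vha100-2 was lower (-0.60, adjusted p = 1.59e-05) and 2 of Vha44 were higher (0.31 and 0.41). Without array 12a 4 genes were called, and Vha14-1 (0.27), Vha26 (0.12), Vha68-3 (0.19), Vha100-5 (0.20) and VhaPPA1-2 (0.12) no longer passed. Muscle markers were higher in the mutants for 5 of 5 (median 2.13) and tubule markers for 6 of 8 (median 0.51), and follicle cell markers were lower for 5 of 5 (median -1.78); their part in the result was not tested.

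XX;dsx flies, mutant for the doublesex transcription factor of the sex determination pathway, were compared with y[1]w[67c] males. The lower genes included 4 paralogs, and 5 genes, 4 of them general subunits, were higher. This made 10 of 29 called beside 25.1% of all elements (10.6% higher and 14.4% lower). Among the paralogs, Vha14-2 and VhaM9.7-d entered the test through male RNA, in which they were high. Vha36-2 read -1.17, -0.78, -1.52 and -1.12 on arrays 13a, 13b, 14a and 14b (-1.15 ± 0.16, adjusted p = 2.32e-06), 2.22-fold lower in the mutants. Vha68-3 read -1.08, -0.75, -0.83 and -0.71 (-0.84 ± 0.11, adjusted p = 9.06e-07), and Vha14-2 read -0.68, -0.91 and -0.82 on the 3 arrays that measured it (-0.78 ± 0.13, adjusted p = 2.43e-04). No array of these 3 paralogs came above -0.68. VhaM9.7-d (-0.74) and the element standing for Vha44 (-0.23) were lower as well, but the other elements of Vha44 were higher (0.35 and 0.34) and their mean was 0.15. Another Vha16-1 element was lower (-0.23) and another Vha100-2 element higher (0.35).

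Higher in XX;dsx were Vha13 at 0.28, 0.35, 0.66 and 0.75 (0.51 ± 0.14, adjusted p = 0.00683) and VhaAC45 at 0.24, 0.18, 0.54 and 0.81 (0.44 ± 0.09, adjusted p = 5.03e-04). VhaAC39-1 read 0.28, 0.36, 0.54 and 0.56 (0.43 ± 0.09, adjusted p = 4.34e-04). In all 3 genes the arrays of hybridisation 14 read higher than those of hybridisation 13, of the opposite dye orientation. Vha55 (0.31) and Vha26 (0.30) completed the genes higher in the mutants. Vha26 and Vha44 lost their calls without any 1 array, Vha13 without array 14b (0.46) and Vha55 without 14a (0.26). Male germline markers were lower in XX;dsx for 5 of 5 (median -2.23) and muscle markers higher for 4 of 5 (median 1.38), and their part in the result was not tested.

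XX;tra2 flies were also set against XY;tra2 flies, so that both sides carried the tra2 mutation. Of 29 genes 5 were higher in XX flies and 4 lower, beside 19.2% of all elements (4.43% higher and 14.8% lower). Vha36-2 read -0.89, -0.44, -2.09 and -1.22 on arrays 15a, 15b, 16a and 16b (-1.16 ± 0.16, adjusted p = 2.03e-06). VhaM9.7-d read -1.18 and -0.92 on the 2 arrays that measured it (-1.08 ± 0.18, adjusted p = 2.5e-04), as did Vha14-2 at -0.83 and -0.92 (-0.80 ± 0.16, adjusted p = 0.00215). These values had a wide spread, with array 16a lowest for Vha36-2 and array 15b highest. Vha68-3 completed the genes lower in XX flies at -0.77, with arrays from -1.30 to -0.03. Through XY;tra2 RNA, in which they were high, Vha14-2 and VhaM9.7-d entered this test.

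Vha26 (E) read 0.58, 0.48, 0.24 and 0.13 (0.36 ± 0.11, adjusted p = 0.0205). VhaPPA1-1 (c″) read 0.33, 0.73, 0.13 and 0.22 (0.35 ± 0.10, adjusted p = 0.00856), and Vha100-4 (a) read 0.67, 0.60, -0.03 and 0.09 (0.33 ± 0.09, adjusted p = 0.00642). Arrays 15a and 15b were the higher ones for each of them, and VhaAC45 (0.33) and Vha100-5 (0.32) were also higher in XX flies. Across all elements array 15b correlated with arrays 16a and 16b at 0.06 and 0.18, against 0.92 between arrays 16a and 16b, and without array 16b 4 genes were called. Vha26, VhaPPA1-1, VhaAC45, Vha100-4 and Vha100-5 each lost their calls without at least 1 array, at 0.28 to 0.37, and scaling the arrays gave 9 higher and 4 lower. Male germline markers were lower in XX flies for 5 of 5 (median -2.41), with their part in the result not tested.

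Tudor flies, described as lacking a germline, were taken whole. Tudor females against tudor males gave no called Vha gene of 27, beside 1.12% of all elements in limma (0.261% higher and 0.863% lower); 1 gene passed an unadjusted p below 0.05, and the ratios ran from -0.17 to 0.34. With arrays scaled to the same spread 6 genes were higher and 1 lower. Vha36-2 stood at -0.00 there. The difference of this sex ratio from that in carcasses was called for 0 of 27 genes in limma (0.161% of all elements, 0.0947% higher and 0.0663% lower), with 2 genes at an unadjusted p below 0.05.

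Against testis, tudor males were lower in several paralogs. Of 29 genes 6 were higher in tudor males and 8 lower, all 8 of them paralogs, beside 30.4% of all elements (14.4% higher and 16% lower). VhaM9.7-d read -1.48 and -1.27 on arrays 18a and 18b (-1.35 ± 0.18, adjusted p = 2.23e-05), Vha68-3 read -1.08 and -0.90 (-1.13 ± 0.16, adjusted p = 3.77e-06) and Vha36-2 read -1.32 and -0.72 (-1.06 ± 0.24, adjusted p = 9.19e-04). Vha14-2 (-0.90), VhaAC39-2 (-0.56), VhaPPA1-2 (-0.38), Vha16-2 (-0.36) and Vha16-5 (-0.33) were lower as well. Of these 8, VhaM9.7-d and Vha14-2 entered the test through testis RNA, in which they were high, and are no separate support. The comparisons of hybridisations 17 to 21 had 1 dye orientation, so their fitted ratios are corrected by the dye coefficient that all arrays share and can lie outside the range of their 2 arrays.

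Higher in tudor males were Vha100-5, at 0.74 and 0.49 (0.50 ± 0.14, adjusted p = 0.00672), Vha100-4, at 0.82 and 0.49 (0.45 ± 0.13, adjusted p = 0.00761), and VhaAC39-1, at 0.84 and 0.28 (0.43 ± 0.13, adjusted p = 0.0126). Vha100-2 (0.35), VhaAC45RP (0.34) and Vha36-3 (0.24) followed. Without array 18a 2 genes were called, VhaM9.7-d and Vha68-3, and without array 18b 8; Vha36-2 stood at -0.76 without 18a and did not pass. Male germline markers were lower in tudor males for 5 of 5 (median -2.71), and muscle markers were higher for 5 of 5 (median 1.71) and midgut markers for 7 of 8 (median 1.10). Their part in the result was not tested.

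Tudor females against testis gave 10 genes higher and 5 lower of 28, beside 35.7% of all elements (16.8% higher and 18.9% lower), with 8 of 12 general subunits higher (median 0.54). VhaM9.7-d read -1.39 and -1.29 on arrays 20a and 20b (-1.31 ± 0.18, adjusted p = 2.27e-05), Vha36-2 read -1.35 and -0.81 (-1.11 ± 0.24, adjusted p = 4.26e-04), and Vha68-3 read -0.98 and -0.96 (-1.11 ± 0.16, adjusted p = 3.42e-06). Both arrays put each of them below every general subunit. The limit given above for VhaM9.7-d and Vha14-2, which entered through testis RNA, applies here too. Vha14-2 (-0.99) and the element standing for Vha44 (-0.30) were also lower, while the other elements of Vha44 were higher (0.51 and 0.46) and their mean was 0.22. Midgut markers were higher in tudor females for 8 of 8 (median 1.83) and muscle markers for 4 of 5 (median 1.70), and male germline markers were lower for 5 of 5 (median -2.90) and accessory gland markers for 6 of 6 (median -1.999). Their part in the result was not tested.

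On the side of tudor females, Vha100-5 read 1.22 and 0.88 (0.93 ± 0.14, adjusted p = 3.85e-06), VhaM9.7-b 1.38 and 0.55 (0.84 ± 0.21, adjusted p = 0.00164) and Vha36-1 0.94 and 0.48 (0.82 ± 0.24, adjusted p = 0.00749). Array 20a was the higher one for all 3. Vha100-2 (0.61), VhaAC39-1 (0.60), Vha26 (0.56), Vha13 (0.54), VhaPPA1-1 (0.53), Vha55 (0.49) and Vha100-4 (0.35) were higher too, and without array 20a 5 genes were called, with Vha36-2 at -0.84 and VhaM9.7-b at 0.43 not passing.

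Against ovary few genes were called in either tudor sex. By standing elements, tudor males were higher than ovary for 2 of 27 genes and lower for none, beside 28.8% of all elements (15.2% higher and 13.6% lower): VhaAC45RP read 0.81 and 0.53 on arrays 19a and 19b (0.56 ± 0.12, adjusted p = 0.00104) and Vha100-5 read 0.82 and 0.47 (0.53 ± 0.14, adjusted p = 0.00448). Another element, 1 of Vha100-2, was lower (-0.63, adjusted p = 0.00187). Without array 19a 0 genes were called in limma, 2 at an unadjusted p below 0.05. Tudor females were higher than ovary for 2 of 27 and lower for none, beside 23.1% of all elements (12% higher and 11.1% lower). These were Vha100-5, at 1.03 and 0.81 on arrays 21a and 21b (0.80 ± 0.14, adjusted p = 6.97e-05), and Vha26, at 0.79 and 0.76 (0.52 ± 0.16, adjusted p = 0.0173), and without either array Vha26 did not pass. The same Vha100-2 element was lower (-0.58, adjusted p = 0.00433). In both comparisons midgut markers were higher than in ovary for all tested (medians 1.68 in tudor males and 2.25 in tudor females). Follicle cell markers were lower for 5 of 5 (medians -2.49 and -1.93). Male germline markers were higher in tudor males than in ovary for 4 of 4 tested (median 0.89). In tudor females 0 of 2 tested were called in limma. The part of these markers was not tested. The testis paralog Vha36-2 stood at 0.09 in tudor males and 0.04 in tudor females over ovary.

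Tudor males against y[1]w[67c] males gave 3 lower genes of 28, beside 6.86% of all elements (1.16% higher and 5.7% lower). Vha36-2 read -1.09 and -0.96 on arrays 22 and 23 (-1.03 ± 0.24, adjusted p = 0.00436), Vha68-3 read -0.57 and -0.79 (-0.68 ± 0.17, adjusted p = 0.00669) and Vha14-2 read -0.75 and -0.53 (-0.64 ± 0.15, adjusted p = 0.0175). Without either array 0 genes were called in limma (8 at an unadjusted p below 0.05 without array 22 and 5 without array 23), with Vha36-2 at -0.92 without array 22 and -1.14 without array 23, and scaled arrays gave 2 higher and 4 lower. The call of Vha14-2 follows in part from its entry through whole male RNA, in which it was high. Male germline markers were lower in tudor males for 5 of 5 (median -2.09).

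Tudor females against y[1]w[67c] females gave 4 higher genes of 26, beside 29.3% of all elements (14.3% higher and 15% lower). Vha100-5 read 0.99 and 0.63 on arrays 24 and 25 (0.81 ± 0.14, adjusted p = 8.28e-05), VhaAC45 read 0.66 and 0.39 (0.52 ± 0.14, adjusted p = 0.00471) and Vha36-3 read 0.34 and 0.40 (0.37 ± 0.09, adjusted p = 0.00181). VhaAC45RP was the other, at 0.33 (adjusted p = 0.0452), and without array 25 Vha100-5 alone was called. A Vha100-2 element other than the one standing for it was lower (-0.43, adjusted p = 0.027). Female germline markers were lower in tudor females for 6 of 7 (median -1.30), and muscle markers (4 of 5, median 1.41) and midgut markers (6 of 8, median 0.90) were higher. Their part in the result was not tested.

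**Figure D5:**
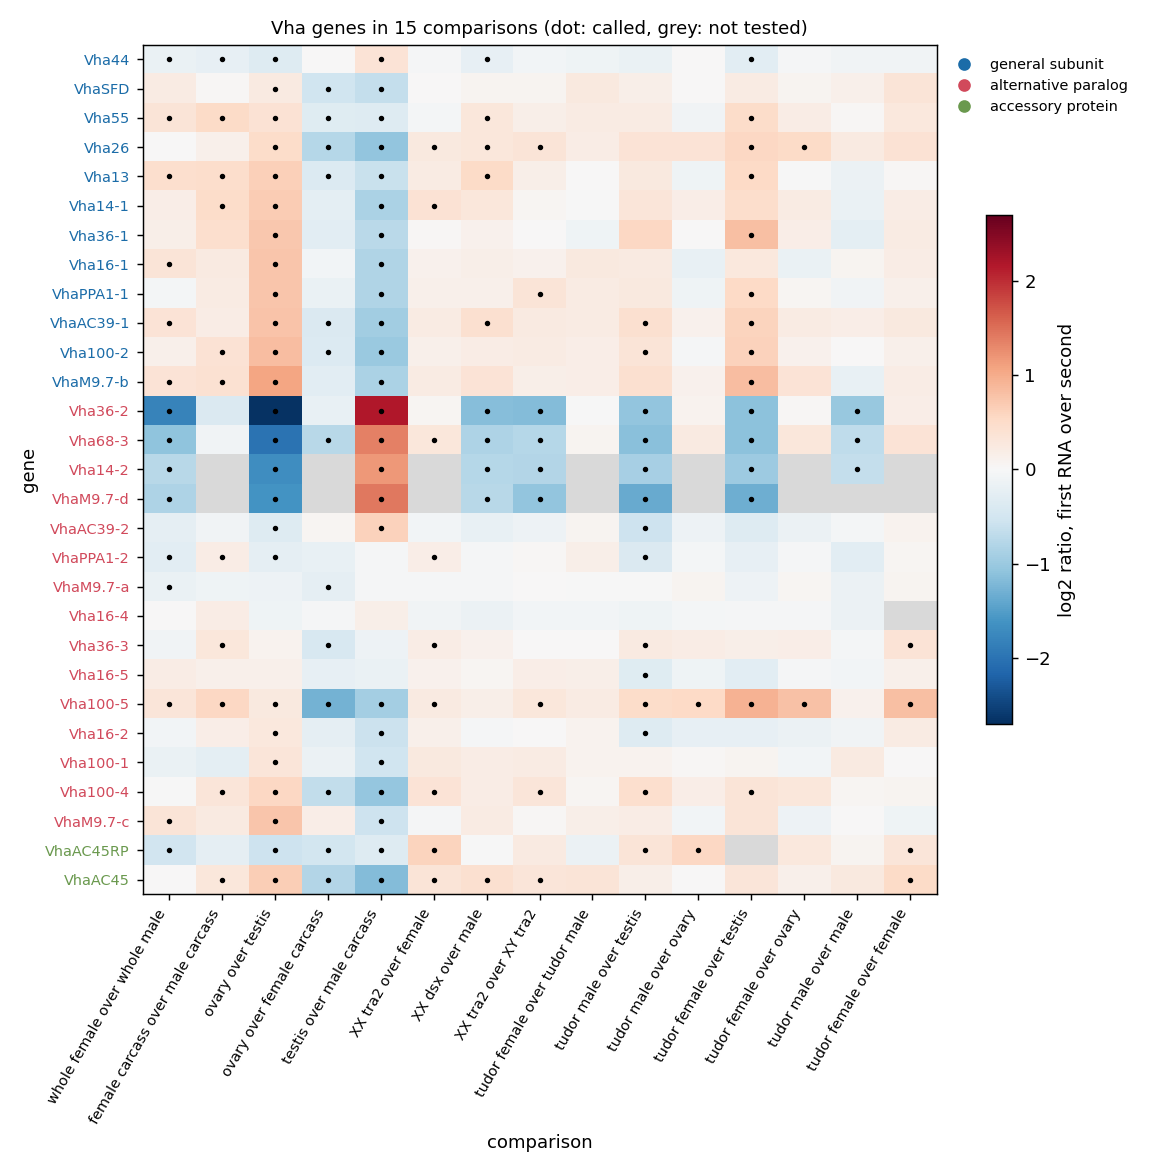
Heat map of the fitted log2 ratio (first-named over second RNA) of the 29 Vha genes in the 15 comparisons, with gene names coloured by class and cells left blank where a gene was not tested. Vha36-2 ranges from -2.67 in ovary over testis to 2.16 in testis over male carcass.

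Over the 15 comparisons, the genes differed in how far and how often they moved. The widest ranges were those of Vha36-2 (-2.67 to 2.16), Vha68-3 (-1.99 to 1.35), VhaM9.7-d (-1.62 to 1.41) and Vha14-2 (-1.67 to 1.17). Vha14-2 had enough values to be tested in 8 comparisons and VhaM9.7-d in 7, each with testis, whole male or XY;tra2 RNA, in which their ratios were high. Having entered the test through those RNAs, they had to differ there, so how often they were called is not counted. Comparisons that share RNAs are not independent of each other.

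Vha100-5 was the gene called most often, in 12 of 15 comparisons (10 higher, 2 lower), with a low of -1.27 in ovary over female carcass and a high of 0.93 in tudor female over testis. Vha68-3 was called in 10. Vha16-4, a proteolipid paralog, was called in none of the 14 in which it was tested in limma, within -0.16 to 0.20, and VhaM9.7-a stayed within -0.25 to 0.08 with 2 calls. Among general subunits the lowest ratio was in testis over male carcass for all but Vha44, and the calls numbered from 3 for Vha16-1, Vha36-1 and VhaSFD to 8 for Vha26. The family does not sit together in the genome: 12 genes lie on 3R, 7 on 2R, 4 each on 2L and 3L and 2 on X (Vha36-3 and VhaAC39-1). Vha100-4 and Vha100-2 are adjacent on 3R, and read 0.56 and 0.83 in ovary over testis.

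Other genes of acidic compartments, a list of 30 lysosomal and V-ATPase assembly genes of which 23 were on the array, were lower in testis than in male carcass for 17 of 23 and higher for none (median -0.61), beside 26.3% of all elements lower. The lowest were the lysosomal mannosidases LManVI (-1.36) and LManII (-1.04) and the lysosomal proteases CtsL1 (-1.15) and cathD (-0.92). In ovary over female carcass 12 of 23 were lower and none higher (median -0.26), beside 25.4% of all elements lower, led by LManVI (-2.51), LManII (-1.63), LManV (-1.62) and LManI (-1.53). In ovary over testis 11 of 21 were higher and 5 lower (median 0.35), beside 34.1% and 31.4% of all elements, with CtsL1 at 1.34 (adjusted p = 6.95e-09), the sterol transport genes Npc2a at 0.88 and Npc1a at -0.90, and cathD at 0.77. LManV is also among the midgut markers.

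In mutant and tudor flies the same list was higher where it was called, apart from 1 lower gene in each tudor sex over ovary. XX;tra2 flies were higher than females for 10 of 22 (median 0.30), beside 54.9% of all elements called and 27.7% higher, with LManII at 1.13 and Gal, a lysosomal galactosidase, at 0.95. Tudor females were higher than females for 6 of 21 (median 0.34), led by Gal (1.05) and LManII (0.91), beside 29.3% of all elements called and 14.3% higher. They were higher than testis for 9 of 20, beside 35.7% called and 16.8% higher. In XX;tra2 flies and in tudor females over females the share of the list called in either direction was thus not above that of all elements. Of the 5 sodium-proton exchangers 2 were higher and 1 lower in ovary than in testis, beside 34.1% and 31.4% of all elements. XX;tra2 flies were higher than females for 3 of 5, beside 27.7%. Females were lower than males for 2 of 5 in whole flies and 2 of 5 in carcasses, beside 27.2% and 7.63%. Testis was lower than male carcass for 2 of 5, beside 26.3%. Nhe3 was higher in ovary than in testis (0.66, adjusted p = 8.78e-11) and lower in testis than in male carcass (-0.87). Nhe1 was lower in ovary than in testis (-0.36).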

How the data were processed

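The data were 46 spotted 2-colour arrays. The deposited values were log ratios of the channels, read here as log2. Per the labels' protocols the probes carried Cy3 and Cy5; the log base, the numerator, the background correction, the normalisation by the authors and the filter behind empty cells are not stated in those sources. An empty cell is therefore a missing value, not a low one. The number of arrays limits the precision, and the deposited values hold no intensities.

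Ratios were turned by the titles, arrays were centred on their medians and duplicate spots were averaged. The first subarray of arrays 7b and 8b (9626 values) ran against the rest of those arrays and was left out. All 15 comparisons were fitted together in limma 3.58.1 (R 4.3.3), with a dye coefficient per element and the hybridisation number as a random block (estimated correlation -0.0653). The dye coefficient was called for 3551 of 14804 elements, and the median residual SD was 0.198. Elements with at least 2 arrays were tested, and a call is a Benjamini-Hochberg adjusted p below 0.05 over all elements tested. Limma's adjusted p is meant wherever one is printed. The labels do not say whether arrays of a comparison used separate RNA preparations, so p-values may measure technical spread. Summaries and plots were made in Python 3.11.15 with pandas 2.3.3 and matplotlib 3.10.9. Tested on simulated data for ovary over testis (13088 elements), the fit recovered 61% of 100 elements changed by 0.5 and 95% of 100 changed by 1, with 4 false calls. Only those elements were changed, and the simulated errors were independent between arrays. In the data 65.5% of all elements were called in that comparison, so these figures need not hold there.

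The element measured on the most arrays stands for a gene, and among equals the one with the lowest ID. Of 7 Vha genes with several elements 4 were tied in this way (Vha16-1, Vha44, Vha55 and VhaSFD), and for Vha44 the choice sets the direction. The 5 highest and 5 lowest genes in ovary over testis, up to 3 called genes per direction elsewhere and up to 4 called genes of other lists were named in full. The genes, classes and lists (acidic compartment genes, proton-coupled exchangers and markers of tubule, midgut, neuron, muscle, accessory gland, follicle cell, male and female germline and yolk) were chosen with earlier results of these data known. The test of the gonad effects was added after seeing the data. The alternatives were independent arrays, no dye coefficient, no centring, arrays scaled to the same spread, a comparison's own arrays, elements measured on all its arrays, the mean over a gene's elements, a 2-fold minimum, other treatments of arrays 7b and 8b, and each array left out. No sequences were used here.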

Additional observations from a re-analysis of the deposited data

Results flagged for a closer look

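In ovary over testis, Vha14-2 read -2.15 on array 6a, far from the other 3 arrays relative to their range. It was 1 of 76 values tested in this way, and chance flags about 1 in 20 groups.

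The female over male ratio differed between whole flies and carcasses, by the test of the difference in limma, for 5 paralogs. Of all elements 35.8% were called in that test. Vha36-2 stood at -1.81 in whole flies and -0.40 in carcasses, a difference of -1.41. Vha68-3 stood at -1.09 in whole flies and -0.10 in carcasses, a difference of -0.99. VhaPPA1-2 differed by -0.49 (-0.28 in whole flies and 0.21 in carcasses), Vha36-3 by -0.39 (-0.09 and 0.30) and Vha100-4 by -0.34 (-0.01 and 0.33), in the same order of groups.

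The ratio of gonad over carcass differed between testis and ovary for 8 of 27 genes, in a limma test added after the data had been seen. The share called, 29.6%, was below the 33.1% of all elements. For Vha36-2 the testis ratio of 2.16 and the ovary ratio of -0.20 differed by 2.36, and for Vha68-3 the testis ratio of 1.35 and the ovary ratio of -0.76 differed by 2.11. VhaAC39-2 differed by 0.57 (0.62 in testis and 0.05 in ovary) and Vha36-3 by 0.30 (-0.13 in testis and -0.43 in ovary). The testis ratio was the lower one for VhaM9.7-c, by a difference of -0.74 (-0.56 in testis and 0.19 in ovary), Vha100-2, -0.65 (-1.01 and -0.37), VhaPPA1-1, -0.63 (-0.80 and -0.17), and VhaAC39-1, -0.55 (-0.94 and -0.39).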

How the results depend on the processing

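Counts of called Vha genes depended on the settings as follows. Counts are listed where they differed from the main fit by a factor above 3/2 or moved to or from 0, and smaller changes are mostly left out. A 2-fold minimum gave 2 calls for whole females over males, 0 for female over male carcass, 5 for ovary over testis, 1 for ovary over carcass, 8 for testis over carcass, 0 for XX;tra2 over females, 1 for XX;dsx over males, 2 for XX over XY tra2, 3 for tudor males and 3 for tudor females over testis, 0 for each over ovary, 1 for tudor males over males, 0 for tudor females over females, 1 for whole flies minus carcasses and 2 for the gonad effects, by construction. Scaling arrays to the same spread gave 7 for whole females over males, 3 for XX;tra2 over females, 17 for XX;dsx over males, 7 for tudor females over tudor males (0 otherwise), 5 for tudor females over ovary, 6 for tudor males over males, 1 for carcasses minus tudor flies and 2 for the gonad effects. For ovary over testis scaling gave 13 higher and 4 lower in place of 17 and 8. For testis over carcass it gave 5 higher and 12 lower in place of 6 and 18. A comparison's own arrays alone gave 6 for whole females over males, 0 for female over male carcass, 5 for XX;tra2 over females, 16 for XX;dsx over males, 5 for XX over XY tra2, 4 for tudor females over ovary, 3 for whole flies minus carcasses and 14 for the gonad effects. For testis over carcass, tudor males over males and tudor females over females this setting could not be run, for want of residual degrees of freedom. Without the dye coefficient there were 7 for female over male carcass, 5 for XX;tra2 over females, 4 for XX over XY tra2, 2 for tudor females over females and 5 for the gonad effects. Elements measured on all arrays gave 7 for ovary over carcass, 2 for whole flies minus carcasses and 2 for the gonad effects. Arrays 7b and 8b as deposited gave 7 for ovary over carcass and 13 for the gonad effects, and turned VhaAC45 to 0.048 and VhaSFD to 0.0084 in ovary over carcass. The mean over a gene's elements gave 1 for tudor females over ovary and turned Vha44 to 0.0905 in female over male carcass, 0.22 in ovary over testis, -0.57 in ovary over carcass, -0.56 in testis over carcass, 0.23 in XX;tra2 over females, 0.15 in XX;dsx over males and 0.22 in tudor females over testis, since its elements disagree. Apart from that, the cause was not tested.

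Leaving out 1 array at a time gave 7 to 14 calls for whole females over males, 3 to 10 for female over male carcass, 22 to 24 for ovary over testis, 6 to 12 for ovary over carcass, 16 for testis over carcass, 4 to 9 for XX;tra2 over females, 7 to 8 for XX;dsx over males, 4 to 8 for XX over XY tra2, 0 for tudor females over tudor males, 2 to 8 for tudor males over testis, 0 to 2 for tudor males over ovary, 5 to 15 for tudor females over testis, 1 for tudor females over ovary, 0 for tudor males over males, 1 to 3 for tudor females over females, 4 to 10 for whole flies minus carcasses, 0 for carcasses minus tudor flies and 4 to 8 for the gonad effects. Where 1 array was left, it was assumed to vary like the other groups. Of 156 called values of a gene in a comparison, 79 lost their call without some array and 77 did not. Treating arrays as independent left 490 of 499 values with the same call and direction, and not centring them left 485. No paired analysis was possible because the groups share no replicate numbers.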

Other observations

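Neuron markers, which include genes of synaptic vesicle release, were lower in testis than in male carcass for 7 of 9 and higher for 1 (median -0.68). Of all elements 26.3% were lower there and 25.6% higher. In ovary over testis 3 of 9 were higher and 3 lower (median -0.08), near the 34.1% and 31.4% of all elements. XX;tra2 flies were higher than females for 5 of 9 and lower for 1 (median 0.27), beside 27.7% and 27.2% of all elements. The yolk protein genes, which supply the egg, were higher in female than in male carcass for 3 of 3 (median 4.21), lower in ovary than in female carcass for 3 of 3 (median -2.39) and higher in tudor females than in tudor males for 3 of 3 (median 2.69). Of all elements 8.89%, 25.4% and 0.261% were called in these directions.

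Ovary over testis was also put together from other comparisons that meet in a common RNA. Vha36-2 was -2.67 on the arrays that compared the gonads, -2.76 by way of the carcasses (including the sex difference of carcasses), -1.15 by way of tudor males and -1.16 by way of tudor females. Vha68-3 was -1.99 directly, -2.21 through the carcasses, -1.37 through tudor males and -1.43 through tudor females. VhaM9.7-b, on the side of ovary, was 1.06 directly, 0.99 through the carcasses, 0.32 through tudor males and 0.47 through tudor females. Over all elements at least 2-fold apart on the direct arrays, the rebuilt ratio was a median of 0.991 of the direct one through the carcasses (1684 elements), 0.57 through tudor males (1828 elements) and 0.558 through tudor females (1641 elements). Vha14-2 and VhaM9.7-d had too few values for the indirect routes.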
